A study of Mus musculus with 8 samples.

Results

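The genes that turn neuropeptide precursors into active peptides and store them in secretory granules were followed across 4 nuclei of the mouse hypothalamus. The 10 genes, chosen by name from the 20284 genes named on the array, were *Pcsk1*, *Pcsk2*, *Pcsk1n*, *Pcsk5*, *Scg2*, *Scg5*, *Chga*, *Chgb*, *Cpe*, and *Pam*. Every probe whose RefSeq accession maps to one of them was taken, which gave 14 of the 55681 probes on the array. Of these, 13 probes, covering all 10 genes, were bright enough to be tested, and 1 of the 2 *Pcsk5* probes was not.

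The study asked which genes are enriched in single hypothalamic nuclei. The arcuate nucleus (Arc), ventromedial hypothalamus (VMH), dorsomedial hypothalamus (DMH), and lateral hypothalamus (LH) were cut by laser microdissection from 2 wild-type C57BL/6 (C57BL/6J in the methods) female mice at 3 mo of age, and no group carried a treatment or an altered gene. Each nucleus was measured on 2 one-color arrays, called replicates 1 and 2, for 8 arrays in all on 1 slide, after whole-transcriptome amplification of the RNA. The labels do not tell which arrays share a mouse, so the p-values below measure the spread between these arrays only.

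Neuropeptides are made as long precursors that enter the secretory pathway. Prohormone convertases cut the precursors after pairs of basic residues, a carboxypeptidase trims these residues away, and an amidating enzyme caps many of the peptides at the C-terminus. Granins are acidic proteins that are packed with the peptides and help to form the granules, and neurons of the hypothalamus use this machinery for peptides such as those of *Pomc*, *Npy*, *Hcrt*, and *Pmch*.

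Values are given as scaled signals, in which each array was brought to the same 75th percentile. Means are given ± SD (n = 2 arrays), differences are on the log2 scale, and the level of one probe is not compared with that of another. A probe was called when its limma p-value was below 0.05 after Benjamini-Hochberg adjustment over all 28896 tested probes. With 2 arrays per nucleus few changes can be called, so a probe that was not called is not shown to be equal between nuclei. In tissue of this kind, fewer cells of a type cannot be told apart from less RNA per cell.

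The nuclei carried the markers of their labels. The summed signal of 6 probes of *Agrp*, *Npy*, *Pomc*, *Kiss1*, and *Ghrh* lay between 146332 and 155585 on the Arc arrays and between 3477 and 6144 on the others. That of *Nr5a1* and *Fezf1* lay between 17676 and 19750 in the VMH and between 355 and 775 elsewhere. That of *Grp*, *Npvf*, and *Prdm13* lay between 8377 and 11001 in the DMH and between 89.5 and 923 elsewhere. That of *Hcrt* and *Pmch* lay between 123622 and 133754 in the LH, but it was also 62914 and 72193 in the DMH, against 286 to 4623 in the Arc and VMH. *Grp*, *Npvf*, and *Prdm13* were chosen as DMH genes by the paper from these same arrays. Their high signal in the DMH is therefore no separate check of the label. Correlations between the 2 arrays of a nucleus over the tested probes were 0.982 (Arc), 0.978 (VMH), 0.972 (DMH), and 0.938 (LH), and LH replicate 2 correlated more with DMH replicate 2 (0.955) than with LH replicate 1.

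Of the 13 member probes tested, 3 were called by the F-test over the 4 nuclei, against 8.34% of all probes tested. They were *Pcsk1*, *Chga*, and 1 of the 2 probes of *Pcsk2*. *Pcsk1* was highest in the LH and lowest in the VMH, whereas this *Pcsk2* probe and *Chga* had their highest mean in the VMH and their lowest in the Arc. The VMH and LH arrays of this *Pcsk2* probe overlapped, as did the Arc and DMH arrays of *Chga*. No probe of *Pcsk1n*, *Scg2*, *Scg5*, *Chgb*, *Cpe*, or *Pam* was called, although each was well above background on every array, and the dim *Pcsk5* was not called.

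The upstream sequences of the 3 called genes and of *Chgb*, a granin that was not called, are shown because this family holds known targets of cyclic AMP signaling, and because the called genes differ in the motifs they hold. They are the 250 bases before a transcript start that RefSeq gives for the mouse assembly GRCm38.p6. That start is the first base of the annotated gene for *Pcsk2*, *Chga*, and *Chgb*, and for *Pcsk1* it lies 437 bases inside the gene, so that its window is upstream of that transcript only. The sequences are written 5′ to 3′ on the strand of the gene. Capitals mark the core of the cyclic AMP response element, TGACGT, its full palindrome, TGACGTCA, which contains the core, and the GC box, GGGCGG, each searched on both strands, so that a GC box of the opposite strand reads CCGCCC.
*Pcsk1*, chr13:75089607-75089856, + strand: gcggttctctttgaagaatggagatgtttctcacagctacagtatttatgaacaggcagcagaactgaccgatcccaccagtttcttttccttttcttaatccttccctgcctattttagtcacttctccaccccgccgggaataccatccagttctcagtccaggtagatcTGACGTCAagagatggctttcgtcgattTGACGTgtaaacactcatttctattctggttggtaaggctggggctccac
*Pcsk2*, chr2:143545883-143546132, + strand: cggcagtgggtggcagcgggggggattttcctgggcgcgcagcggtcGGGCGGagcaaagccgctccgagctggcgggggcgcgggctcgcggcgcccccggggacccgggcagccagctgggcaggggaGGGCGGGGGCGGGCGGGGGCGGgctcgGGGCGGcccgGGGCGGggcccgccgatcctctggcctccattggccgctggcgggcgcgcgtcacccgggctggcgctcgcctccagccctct
*Chga*, chr12:102554691-102554940, + strand: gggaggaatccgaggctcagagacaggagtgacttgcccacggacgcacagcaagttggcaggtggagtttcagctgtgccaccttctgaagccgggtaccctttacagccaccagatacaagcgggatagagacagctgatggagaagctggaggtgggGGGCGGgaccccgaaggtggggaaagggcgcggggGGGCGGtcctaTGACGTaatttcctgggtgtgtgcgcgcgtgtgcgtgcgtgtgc
*Chgb*, chr2:132781392-132781641, + strand: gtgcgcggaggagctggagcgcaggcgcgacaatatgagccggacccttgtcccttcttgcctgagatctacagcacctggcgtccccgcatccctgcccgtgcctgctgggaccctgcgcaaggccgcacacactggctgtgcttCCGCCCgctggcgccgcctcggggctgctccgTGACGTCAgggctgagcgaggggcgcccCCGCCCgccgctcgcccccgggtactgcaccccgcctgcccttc

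*Pcsk1* held the full palindrome 78 bases before this start and a further core 50 bases before it, with no GC box. *Chga* held a core without the full palindrome 44 bases before its start, together with 2 GC boxes. *Chgb* held the full palindrome 72 bases before its start, with 2 GC boxes on the opposite strand. *Pcsk2* held no core and 7 GC boxes, some of which overlap. Over the 9 members with an entry, the core was found in 5 genes (*Pcsk1*, *Scg2*, *Scg5*, *Chga*, and *Chgb*), against 6.47% of 32851 upstream sequences of the same length. The full palindrome was found in 3 of the 9 (*Pcsk1*, *Scg2*, and *Chgb*), against 1.55% of all, and the GC box in 7 of the 9, against 32.7%. The TATA box letters TATAAA were found in 0 of the 9, against 12.4%. These letters are a description of the windows, and both called and uncalled members held the core.

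*Pcsk1* encodes prohormone convertase PC1/3, which makes the first cuts in precursors such as that of *Pomc*. Its probe (A_52_P500979) gave scaled signals of 1543 and 1830 in the Arc, 1004 and 990 in the VMH, 1308 and 1222 in the DMH, and 2839 and 3048 in the LH. Both LH arrays lay above all other arrays, and both VMH arrays lay below all others. The means were 1687 ± 203 (Arc), 997 ± 10.4 (VMH), 1265 ± 60.9 (DMH), and 2944 ± 148 (LH), and the adjusted p of the limma F-test was 0.0141.

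In the LH, *Pcsk1* was 2.95-fold its level in the VMH, with a VMH minus LH difference of -1.56 (SE 0.19, adjusted p = 0.00830 with limma). It was the 1 member probe called as higher in the LH than in the VMH, where 3.04% of all probes were. The LH level was also 2.33-fold that of the DMH (-1.22, SE 0.19, adjusted p = 0.0470), again as the 1 member probe called there, against 0.664% of all probes. It was 1.75-fold that of the Arc (-0.81, SE 0.19, adjusted p = 0.0475), as 1 of 2 member probes called, against 6.02% of all probes. Below the LH the order was Arc, DMH, and VMH, and neighbors in it did not overlap but were not called, with 0.41 for Arc minus DMH (95% interval -0.05 to 0.87, adjusted p = 0.537 with limma) and -0.34 for VMH minus DMH (-0.80 to 0.12, adjusted p = 0.567).

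The *Pcsk1* call by the F-test was lost without either VMH array (adjusted p 0.0592 and 0.0625 with limma) and without scaling (0.0973), and the call between VMH and LH was lost without either VMH array (0.0541 and 0.0641) and with the Tukey-Kramer test (0.0987). The call against the Arc was lost when any of the 8 arrays was left out (0.0648 to 0.261), and the call against the DMH was lost without each Arc, VMH, or DMH array (0.0996 to 0.218). The calls against the Arc and DMH were also lost without scaling (0.129 and 0.246), with quantile normalization (0.0559 and 0.0520), without the filter on dim probes (0.114 and 0.101), and with the Tukey-Kramer test (0.149 and 0.312). Both were lost as well with a block for the replicate number (0.0643 and 0.0786 with limma), and that against the Arc with outlier spots kept (0.0502).

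*Pcsk2* encodes prohormone convertase PC2, which cuts the products of PC1/3 into smaller peptides such as alpha-melanocyte-stimulating hormone. Its probe A_51_P229613 gave scaled signals of 8621 and 11772 in the Arc, 24368 and 22579 in the VMH, 13782 and 17220 in the DMH, and 21563 and 24180 in the LH. The Arc arrays were the lowest, the DMH arrays came next, and the ranges of VMH and LH overlapped. The means were 10197 ± 2228 (Arc), 23473 ± 1266 (VMH), 15501 ± 2431 (DMH), and 22871 ± 1851 (LH), and the adjusted p of the limma F-test was 0.0495.

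*Pcsk2* was 2.33-fold higher in the VMH than in the Arc by this probe, with an Arc minus VMH difference of -1.22 (SE 0.24, adjusted p = 0.0315 with limma). Its LH level was 2.27-fold that of the Arc (-1.18, SE 0.24, adjusted p = 0.0269). The VMH and LH differed by 0.04 (95% interval -0.52 to 0.60). The DMH arrays overlapped neither neighbor in the order, but these differences were not called, with -0.61 for Arc minus DMH (-1.17 to -0.05, adjusted p = 0.409) and -0.57 for DMH minus LH (-1.13 to -0.01, adjusted p = 0.320). With limma, the F-test call was lost without any array other than LH replicate 1 (0.0530 to 0.224), the call between Arc and VMH without each Arc, VMH, or DMH array (0.0559 to 0.203), and the call between Arc and LH without each Arc or VMH array or LH replicate 2 (0.0549 to 0.175). The F-test call was also lost without scaling (0.0800), with quantile normalization (0.0548), without the filter on dim probes (0.102), with the deposited table (0.0515), with outlier spots kept (0.0517), and without moderation (0.123). A block for the replicate number ended it too (0.0558 with limma). The calls against VMH and LH were lost without the filter (0.0674 and 0.0573) and with the Tukey-Kramer test (0.274 and 0.235), and that against LH without scaling (0.0541).

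The 2 probes of *Pcsk2* disagreed on 1 array. Probe A_55_P1972963 gave scaled signals of 1828 and 1717 in the Arc, 6541 and 4879 in the VMH, 3638 and 3954 in the DMH, and 250 and 4896 in the LH. It therefore ordered Arc, DMH, and VMH as the other probe did, but its LH arrays differed 19.6-fold, while those of the other probe differed 1.12-fold. The spot of this probe on LH replicate 1 had an extent of 18.5 pixels, among the smallest 0.664% of the spots of that array, and carried no outlier flag. On the other 7 arrays its extent was 22.7 to 30 pixels.

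With all arrays this second probe was not called (adjusted p of the limma F-test 0.481). Without LH replicate 1 it was called (0.0156), with a largest difference of 1.67, and without LH replicate 2 it was called as well (0.000779), with a largest difference of 4.50. The part of the spot in this disagreement was not tested.

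*Pcsk1n* encodes proSAAS, an inhibitor of PC1/3. Its probe (A_52_P496202) gave scaled signals of 50340 and 50798 in the Arc, 61989 and 50624 in the VMH, 39957 and 39020 in the DMH, and 60225 and 57234 in the LH. Both DMH arrays were the lowest, and the other nuclei overlapped except that both LH arrays lay above both Arc arrays. The adjusted p of the limma F-test was 0.268, and the DMH minus LH difference of -0.57 (95% interval -1.04 to -0.11) had an adjusted p of 0.249.

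*Scg5* encodes 7B2, the chaperone that PC2 needs to mature. Its probe (A_55_P1981929) gave 12934 and 12343 in the Arc, 14664 and 15799 in the VMH, 11770 and 12785 in the DMH, and 11056 and 13518 in the LH. Both VMH arrays lay above all others, but the Arc minus VMH difference was -0.27 (95% interval -0.74 to 0.20), and the F-test gave an adjusted p of 0.593 with limma.

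*Pcsk5* encodes PC5/6, a convertase of many tissues that acts on growth factor and hormone precursors. Its brighter probe (A_52_P544043) gave 177 and 204 in the Arc, 197 and 193 in the VMH, 324 and 330 in the DMH, and 223 and 31.7 in the LH. The DMH arrays were the highest, and LH replicate 2 was not well above background. The limma F-test gave an adjusted p of 0.397, and without LH replicate 1, when LH replicate 2 stood alone, it gave 0.00241. Its largest difference, 1.96, rested on that signal and was 0.93 when dim signals were floored. The other probe (A_55_P2167274) was not well above background on any of the 8 arrays, with scaled signals of 22.0 to 36.7, and was not tested.

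**Figure D1:**
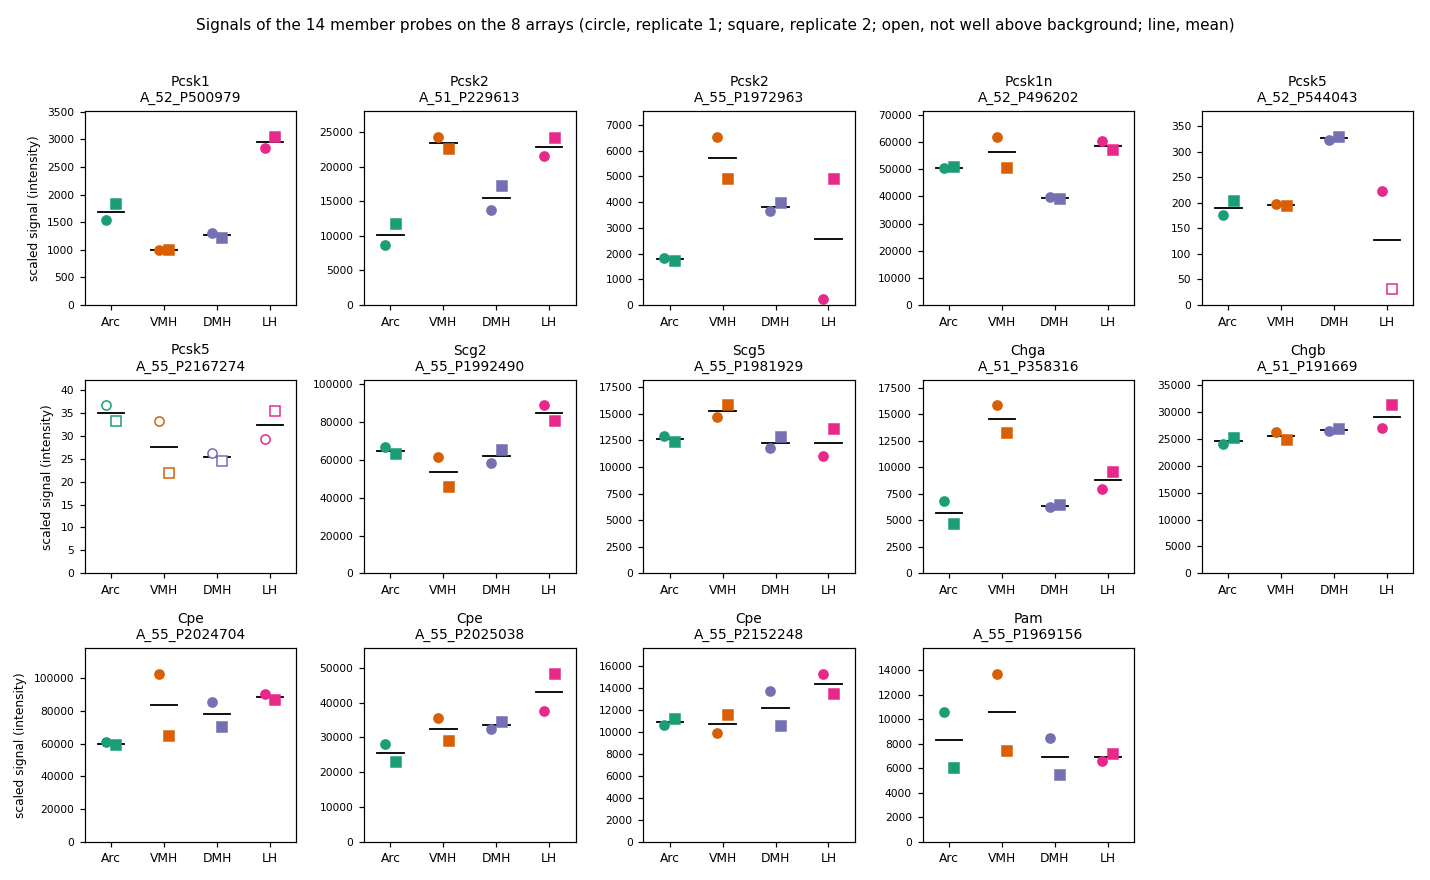
Scaled signals (linear intensity, from 0) of the 14 member probes on the 8 arrays by nucleus, with circles for replicate 1, squares for replicate 2, open symbols for arrays not well above background, and a line at the mean of each nucleus. *Pcsk1* is set apart by both LH arrays (2839 and 3048), *Chga* by both VMH arrays (15857 and 13241), and the second *Pcsk2* probe by 1 low LH array (250).

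*Cpe* encodes carboxypeptidase E, which removes the basic residues that the convertases leave behind. It was measured by 3 probes, and all had their highest mean in the LH. Probe A_55_P2024704, the brightest, gave 60644 and 58992 in the Arc, 102765 and 64331 in the VMH, 85445 and 70267 in the DMH, and 90215 and 86539 in the LH. The Arc arrays were the lowest, and the VMH arrays differed 1.60-fold from each other.

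No probe of *Cpe* was called, with adjusted p-values of the limma F-test of 0.478 for A_55_P2024704, 0.265 for A_55_P2025038, and 0.498 for A_55_P2152248. The Arc minus LH differences were -0.56 (95% interval -1.19 to 0.06), -0.75 (-1.30 to -0.19), and -0.40 (-0.92 to 0.13) in that order. The largest of them had an adjusted p of 0.0959. The probes had different nuclei as their lowest, Arc for the first and second and VMH for the third.

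*Pam* encodes peptidylglycine alpha-amidating monooxygenase, which amidates peptides at the C-terminus. Its probe (A_55_P1969156) gave 10632 and 6000 in the Arc, 13746 and 7436 in the VMH, 8456 and 5429 in the DMH, and 6592 and 7203 in the LH. Replicates of the Arc, VMH, and DMH differed 1.77-, 1.85-, and 1.56-fold, replicate 1 being the brighter in each, and all pairs of nuclei overlapped except VMH and LH. The limma F-test gave an adjusted p of 0.673, and the difference between VMH and DMH had a 95% interval of -0.39 to 1.54.

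*Chga* encodes chromogranin A, a granin that takes part in granule formation and is itself cut into peptides. Its probe (A_51_P358316) gave 6780 and 4636 in the Arc, 15857 and 13241 in the VMH, 6263 and 6399 in the DMH, and 7985 and 9586 in the LH. Both VMH arrays lay above all others, both LH arrays came next, and the Arc and DMH overlapped. The means were 5708 ± 1516 (Arc), 14549 ± 1850 (VMH), 6331 ± 96.4 (DMH), and 8786 ± 1132 (LH), and the adjusted p of the limma F-test was 0.0481.

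*Chga* was 2.58-fold higher in the VMH than in the Arc, with an Arc minus VMH difference of -1.37 (SE 0.25, adjusted p = 0.0256 with limma). *Chga* and *Pcsk2* were the 2 member probes called as higher in the VMH than in the Arc, against 3.52% of all probes. The VMH minus DMH difference of *Chga*, 1.19 (95% interval 0.60 to 1.79), missed the threshold with an adjusted p of 0.0785. The VMH minus LH difference was 0.73 (0.13 to 1.32, adjusted p = 0.160), and Arc minus DMH was -0.18 (-0.77 to 0.42). With limma, the F-test call and the call between Arc and VMH were both lost without each Arc, VMH, or DMH array (0.0788 to 0.212 and 0.0567 to 0.165). Both were also lost without the filter on dim probes (0.0954 and 0.0530), the first without scaling (0.0535), with quantile normalization (0.0669), and with an F-test without moderation (0.132), and the second with the Tukey-Kramer test (0.276). The F-test call was lost as well with a block for the replicate number, as given in the closing section.

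*Chgb* encodes chromogranin B and was printed as 10 spots per array, which differed by a coefficient of variation of 2.38% to 8.42% within an array. Its probe (A_51_P191669) gave 24092 and 25239 in the Arc, 26204 and 24805 in the VMH, 26368 and 26839 in the DMH, and 27028 and 31260 in the LH. It had the narrowest range of the tested member probes, 0.24 on the log2 scale between its highest and lowest nucleus, and the limma F-test gave an adjusted p of 0.769. The 95% interval of its VMH minus LH difference was -0.64 to 0.26, and that of its Arc minus VMH difference was -0.50 to 0.40.

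*Scg2* encodes secretogranin II, the precursor of secretoneurin. Its probe (A_55_P1992490) gave 66575 and 62769 in the Arc, 61664 and 45533 in the VMH, 58454 and 65384 in the DMH, and 88812 and 80588 in the LH. As for *Pcsk1*, both LH arrays lay above all others and the VMH had the lowest mean, but the VMH minus LH difference of -0.67 (95% interval -1.20 to -0.15) had an adjusted p of 0.145, and that of the limma F-test was 0.284.

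**Figure D2:**
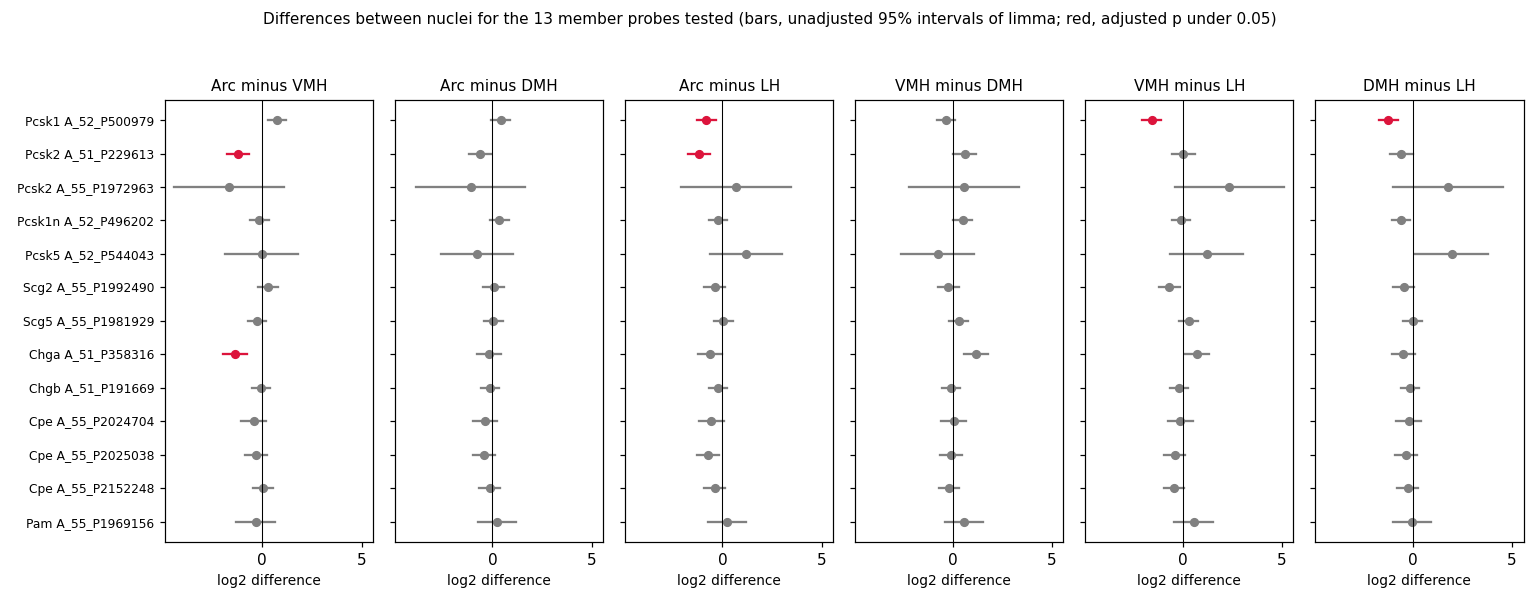
Log2 differences (x axis) between each pair of nuclei for the 13 member probes tested (rows), with the estimate as a point, its unadjusted 95% interval from limma as a bar, and red for adjusted p below 0.05. The 6 red points belong to *Pcsk1*, *Pcsk2*, and *Chga*, and the widest bars to the second *Pcsk2* probe and *Pcsk5*.

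In 2 of the 6 comparisons no member probe was called. Between the Arc and DMH, limma called 0 of 13 members, against 1.26% of all probes in either direction, with 1 member and 10.8% of all probes at an unadjusted p below 0.05. The Tukey-Kramer test called 0 members there, but only 4 of all 28896 probes. Between the VMH and DMH, limma called 0 of 13, against 2.04% of all probes, with 3 members and 12.3% of all probes at an unadjusted p below 0.05. The Tukey-Kramer test called 0 members and 3 of all probes. Over the 13 member probes, the nucleus with the highest mean was the LH for 7, the VMH for 5, the DMH for 1, and the Arc for 0. Over all tested probes it was the LH for 29.1%, the VMH for 26.0%, the DMH for 14.8%, and the Arc for 30.1%. The 7 LH probes include all 3 of *Cpe*, and the 5 VMH probes include both of *Pcsk2*, so these are not counts of genes. With 1 array left out, the order of VMH and LH turned for *Pcsk1n*, *Pcsk2* (A_51_P229613), and *Cpe* (A_55_P2024704). The median difference between Arc and LH was -0.39 over the members and 0.05 over all tested probes, and that between Arc and VMH was -0.27 and 0.01. The median of the largest difference between any pair of nuclei was 0.67 for the members and 0.65 for all tested probes.

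Some markers of cell types differed between the nuclei in the direction of a called member, and others did not. Of 11 neuron marker probes tested, 5 were called by the F-test, those of *Nefl*, *Nefm*, and *Rbfox3*, the gene of the neuronal nuclear protein NeuN. All 5 were higher in the VMH than in the Arc, and 4 of the 11 were higher in the LH than the Arc, which is the direction of *Pcsk2* and *Chga*, while *Uchl1* was lower there. The median Arc minus VMH difference of the neuron probes was -0.94 and the median Arc minus LH difference was -0.87. The summed signal of the 10 neuron probes measured on every array was 182924 to 186531 in the Arc, 238269 to 255339 in the VMH, 191251 to 196162 in the DMH, and 212710 to 232149 in the LH. Their part in the differences of *Pcsk2* and *Chga* was not tested.

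Of 12 oligodendrocyte marker probes tested, 10 were called by the F-test and 10 were higher in the LH than the Arc, 8 were higher in the LH than in the VMH, and 7 were higher in the LH than in the DMH, which is the direction of *Pcsk1*, while 1 probe of *Mbp* was lower in the LH than the Arc. Their summed signal was 20563 to 27796 in the Arc, 45553 to 52918 in the VMH, 37992 to 38523 in the DMH, and 133885 to 142194 in the LH. Outside the LH their direction was not that of *Pcsk1*. Their median difference was -1.18 for Arc minus VMH and -0.91 for Arc minus DMH. Those of *Pcsk1* were 0.75 and 0.41, neither of them called. Of 8 microglia marker probes tested, 0 were called by the F-test. Of the astrocyte and endothelial marker probes, 3 of 12 and 3 of 9 tested were higher in the LH than the Arc, while both tested probes of *Gfap*, an astrocyte marker, were higher in the Arc than the VMH (2.38 and 1.95, adjusted p 0.0152 and 0.0124 with limma). The part of these cells in the differences of *Pcsk1* was not tested.

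Of 5 ependymal and tanycyte probes tested, 3 were higher in the Arc than the VMH and 4 were higher in the Arc than the LH, with a summed signal over 9 probes of 6500 to 6655 there and 1263 to 2006 on the other arrays. The marker list of the anterior pituitary, a tissue rich in secretory granules, held 7 genes. *Lhb* was well above background on 3 arrays, both of the DMH and VMH replicate 2, with 137 and 79.8 in the Arc, 57.5 and 100.2 in the VMH, 103 and 115 in the DMH, and 43.1 and 26.3 in the LH, and the limma F-test did not call it (adjusted p 0.0937). Between Arc and LH *Lhb* passed the threshold (adjusted p 0.0495 with limma), but no Arc or LH array was well above background, so that no fold is given. *Cga* stood at 1425 on Arc replicate 1 and between 19.7 and 30.4 on the other arrays, and *Gh*, *Prl*, *Tshb*, *Fshb*, and *Pou1f1* were not well above background on any array. *Pcsk1* was lower on Arc replicate 1 than on Arc replicate 2, and *Chga* was higher. The part of this signal in the members was not tested, and the calls without each Arc array are given above.

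**Figure D3:**
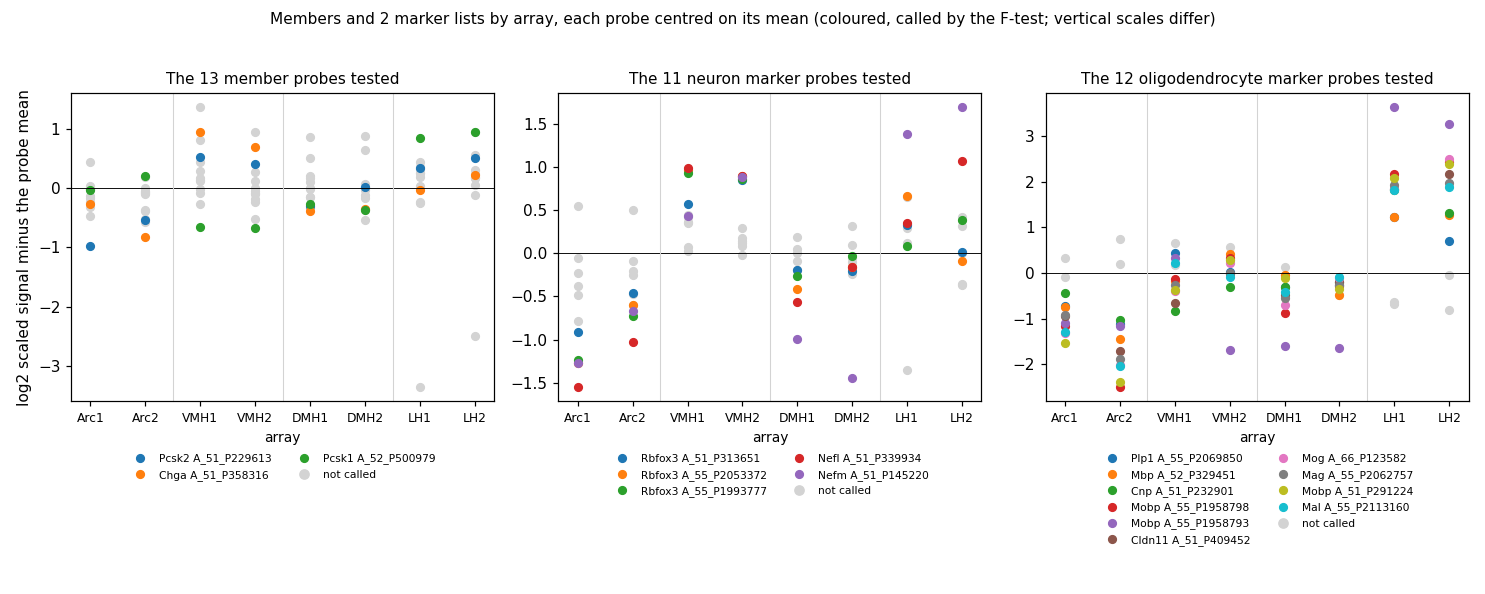
Log2 scaled signal minus the probe mean (y axis, a separate scale in each panel) on each of the 8 arrays (x axis) for the member probes, the neuron markers, and the oligodendrocyte markers tested, with called probes colored and the others gray. Of the called probes, those of *Pcsk2*, *Chga*, *Nefl*, and *Rbfox3* have their lowest mean in the Arc and their highest in the VMH, *Nefm* is lowest in the DMH and highest in the LH, and *Pcsk1* and the called oligodendrocyte markers are highest in the LH.

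The probes of other genes most like *Pcsk1* were found among the called probes, as those with the smallest root mean square difference from it in centered log2 signal over the 8 arrays. They were *Rffl* (0.154), *Syde1* (0.176), *Rgs3* (0.176), *Gab1* (0.184), and *H3c15* (0.198). *Rgs3* encodes a regulator of G protein signaling and *Gab1* an adaptor of receptor tyrosine kinases. None of the 5 belongs to the lists of processing or granule genes.

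Among 15 other processing enzymes with 17 probes, 15 probes were tested and 2 were called by the F-test, and *Cpz* was not well above background. *Pcsk6*, the convertase PACE4, gave 1069 and 1719 in the Arc, 2214 and 2168 in the VMH, 608 and 699 in the DMH, and 1814 and 2136 in the LH (adjusted p of the limma F-test 0.0249). The DMH was thus lowest, and the VMH minus DMH difference was 1.75 (adjusted p = 0.0246 with limma). *Pcsk4*, a convertase best known from germ cells, was lower in the LH than in the VMH, with a difference of 1.23 for VMH minus LH (adjusted p = 0.0229 with limma). *Furin*, *Pcsk7*, *Cpd*, *Cpm*, *Ece1*, *Ece2*, *Mbtps1*, *Ctsl*, *Qpct*, *Qpctl*, and *Rnpep* were not called by the F-test.

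Of the 20 other granule and release genes on the array, with 27 probes tested, 7 probes of 5 genes were called by the F-test. *Slc18a2*, the vesicular monoamine transporter VMAT2, was high in the Arc by both probes, and the brighter one (A_55_P2143946) gave 3524 and 4564 in the Arc, 715 and 595 in the VMH, 1983 and 2275 in the DMH, and 747 and 730 in the LH. Its Arc minus VMH difference was 2.62 (adjusted p = 0.00181 with limma). *Cadps2*, which primes dense-core vesicles for release, was high in the VMH by both probes, and the brighter one (A_55_P2043157) gave 2620 and 2432 there and 749 to 1361 on the other arrays. It was higher in the VMH than in the Arc (-1.43 for Arc minus VMH, adjusted p = 0.0117 with limma), the direction of *Chga* and *Pcsk2*.

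*Sytl4*, the granule-docking protein granuphilin, was low in the LH, with 569 and 691 there and 1306 to 2788 on the other arrays (adjusted p of the limma F-test 0.00649). *Vgf*, a granin-like precursor, had its highest mean in the LH and its lowest in the VMH, as *Pcsk1* and *Scg2* had, with 25095 and 32209 in the LH and 10552 and 11434 in the VMH, and its VMH minus LH difference was -1.37 (adjusted p = 0.0197 with limma). *Syt7*, a calcium sensor for granule release, was lowest in the Arc by both probes, of which 1 was called by the F-test (0.0361) and the other was not (0.0511). *Scg3*, *Resp18*, *Ptprn*, *Ptprn2*, and *Cadps* were not called by the F-test. *Ptprn* was called between Arc and LH, with 1.12 for Arc minus LH (adjusted p = 0.0491 with limma). Of the 27 probes tested, 5 were called as higher in the Arc than the LH, against 3.33% of all probes. In the other direction, 2 were called as higher in the LH, against 6.02% of all probes.

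**Figure D4:**
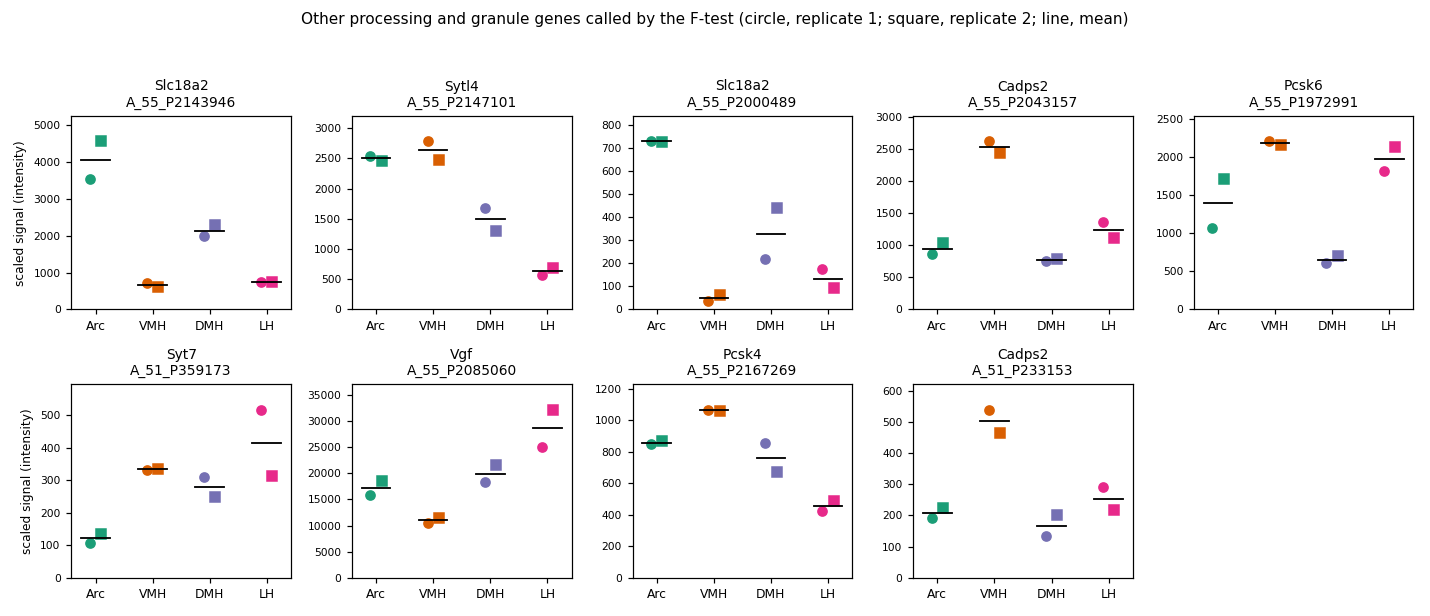
Scaled signals (linear intensity, from 0) by nucleus of the 9 probes of other processing and granule genes called by the F-test, with circles for replicate 1, squares for replicate 2, and a line at the mean. *Slc18a2* is highest in the Arc, *Cadps2* in the VMH, and *Vgf* in the LH, and *Pcsk6* is lowest in the DMH (608 and 699).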

How the data were processed

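Processed signals of 8 one-color Agilent arrays, 2 for each of 4 hypothalamic nuclei, were analysed. The authors amplified total RNA, labeled the cDNA, and extracted the spots with Agilent Feature Extraction, for which the labels give version 11.5.1.1 and the file headers give 10.7.3.1. The authors deposited linear intensity values, already background-corrected but not scaled between arrays. Cy3 is named in the labels and Cy5 in the methods, and the values used are those of the red channel.

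Spots flagged as outliers (126 to 364 of 59305 per array) were left out, replicate spots were averaged, arrays were scaled by their 75th percentile, and log2 was taken. Scaled signals in the text are these values brought back to the geometric mean of the 8 percentiles. No spot was saturated, and 47.1% to 52.7% of the spots were well above background. The number of arrays limits the precision. A probe was tested if the software placed it well above background in both replicates of any nucleus, which left 28896.

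The 4 nucleus means were fitted jointly with limma 3.58.1 in R 4.3.3, with 4 residual and 3.02 prior degrees of freedom. The F-test and each of the 6 comparisons between nuclei received Benjamini-Hochberg adjustment over all tested probes. The comparisons share arrays. The methods name no test for the arrays and a one-way ANOVA with the Tukey-Kramer test as a general rule, which was an alternative. In simulated data for Arc and VMH with 28765 probes, 42% of the probes changed 4-fold and 1% of those changed 2-fold were called. Fewer probes were changed there than the 1712 that limma called between Arc and VMH in the data, and the others were left unchanged. The adjustment is stricter with fewer changes, so these shares do not measure recovery in the data.

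Of 28390 probes with a RefSeq accession, 26762 were named through the annotation GRCm38.p6. Of the 10 members, 9 had an upstream sequence in the table used. Members and gene lists were chosen with earlier results of these data known. All member probes are given, with full values for called probes and for the brightest probe of every other member. Values of 1 gene of the other lists are not reported here. Other processing and granule genes called by the F-test are named, as are the 5 probes most like the member with the lowest adjusted p. Replicate numbers were checked for pairing through the correlation of replicate 1 minus replicate 2 differences between nuclei, which lay between -0.0266 and 0.258. These correlations cannot exclude that a replicate number marks 1 mouse. The main fit had no block, and results with a block are given below.

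Alternatives concerned scaling (none, or quantile normalization), background (normexp with an offset of 50), the source of values (the deposited table of the 8 arrays), dim probes (unfiltered, required on every array, or floored at the lowest measured signal), outlier spots (retained), a replicate block, moderation (trended and robust), the ANOVA, and each array in turn left out.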

Additional observations from a re-analysis of the deposited data

How the results depend on the processing

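None of the 6 called differences changed direction under any of the 19 alternatives. Of all 78 differences between nuclei of the 13 tested member probes, 22 turned sign when 1 array was left out, and 0 of these were called. Among them were Arc minus LH of the second *Pcsk2* probe (0.68, and -1.47 without LH replicate 1) and of *Pcsk5*, for which LH replicate 2 gives only a bound. Each member count is given with the number called over all probes, of 28896 tested, or of 55681 without the filter on dim probes and 22747 with the filter on all 8 arrays. By the F-test, 3 members were called (2410 over all probes), but 0 without scaling (1879), and 1 each with quantile normalization (2341), without the filter (1754), with the replicate block (2081), and with the one-way ANOVA (527). Between Arc and VMH, 2 were called (1712), but 0 without the filter (1156) and 0 with the Tukey-Kramer test (2). Between Arc and LH, 2 were called (2700), but 1 with quantile normalization (2650), with outlier spots kept (2649), and with the block (2535), and 0 without scaling (1621), without the filter (1832), and with the Tukey-Kramer test (30). Between VMH and LH, 1 was called (1525), but 0 with the Tukey-Kramer test (3). Between DMH and LH, 1 was called (267), but 0 without scaling (167), with quantile normalization (220), without the filter (118), with the block (161), and with the Tukey-Kramer test (0). Between VMH and DMH, 0 were called (590), but 1 with normexp (711), with the filter on all 8 arrays (459), and with trended and robust moderation (741), and between Arc and DMH, 0 were called throughout. Leaving out 1 array gave 0 to 5 member calls by the F-test, 0 to 3 between Arc and VMH, 0 to 3 between Arc and LH, 0 to 2 between VMH and LH, and 0 to 2 between DMH and LH, while the calls over all probes ranged over 400 to 2517, 694 to 3637, 276 to 2738, and 32 to 1271 for these 4 pairs, with the lone array of a nucleus assumed to vary like the others. The causes of these changes were not tested, except that dropping the filter or an array changes the number of probes or samples by construction. *Pcsk1* was called by the F-test in 16 of the 19 alternatives and between VMH and LH in 16, whereas *Pcsk2* (A_51_P229613) was called by the F-test in 5 and *Chga* in 8. Over all probes the F-test called 872 to 3784 with 1 array left out. With the replicate block, *Pcsk1* kept an adjusted p of 0.0266 by the F-test, and *Pcsk2* and *Chga* rose to 0.0558 and 0.0692. The differences of *Pcsk1* against the Arc and DMH had 0.0643 and 0.0786 with the block. The labels do not say whether a replicate number marks 1 mouse. Signals near background limit *Pcsk5*, and 2 arrays per nucleus limit every member.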
